A study of Mus musculus with 4 samples.

Results

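The 10 genes described here are the interleukin 6 (IL-6) family ligands Il6, Il11, Lif and Osm, the receptor chains Il6ra, Il11ra1, Osmr and Il6st, the transcription factor Stat3 and its feedback inhibitor Socs3. They were chosen by name, and all 10 were found among the 24421 gene symbols of the count tables. RNA was sequenced from J558 allografts, which are tumours grown under the skin of BALB/c female mice from a mouse plasmacytoma line whose cell type is labelled B lymphocyte. On day 6, 2 tumours were from mice given 0.5% methylcellulose by mouth (Vehicle tumours 1 and 2, shown as Vehicle-1 and Vehicle-2 in the plots) and 2 were from mice given TAK-931, an inhibitor of the replication kinase CDC7, at 60 mg/kg once a day (TAK-931 tumours 1 and 2). All 4 tumours came from 1 cell line in hosts with an intact immune system, and each library is bulk RNA of a whole tumour with the host cells it holds. No label names a batch.

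IL-6 was first known as a growth factor for B cells, plasma cells and plasmacytomas. It binds the IL-6 receptor, encoded by Il6ra, and the complex recruits the shared signalling chain gp130, encoded by Il6st, which activates JAK kinases and then STAT3. IL-11, leukaemia inhibitory factor (Lif) and oncostatin M (Osm) signal through gp130 as well, each with a further receptor chain, and STAT3 induces Socs3, whose product binds gp130 and JAK kinases and shuts the signal down.

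Library totals were between 16487902 and 19589339 counts, and levels are given as CPM, counts scaled to the size of each library. TAK-931 tumour 1 stood apart from the other libraries. It differed from TAK-931 tumour 2 by over 1.5-fold in 57.2% of the 13669 genes tested, whereas Vehicle tumour 1 and Vehicle tumour 2 differed by this much in 16.7%. A list of 8 plasma cell markers summed to 9715 and 10307 CPM in the Vehicle tumours, 4769 CPM in TAK-931 tumour 1 and 13614 CPM in TAK-931 tumour 2, and all 8 markers, which include the tumour antigen gene Trap1a, had counts in every library. Of the 8, 0 were higher and 3 (Sdc1, Mzb1 and Xbp1) were lower in both TAK-931 tumours, against 30% and 32.7% of genes tested. The sum in TAK-931 tumour 2 was raised by Jchain, at 1.51-fold the Vehicle average, and Irf4, at 2.23-fold. In whole tumours, fewer cells of a type and less RNA per cell cannot be told apart. Values are therefore given library by library.

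Socs3, the feedback inhibitor, and Lif, a ligand, were at about the same level in both TAK-931 tumours and above both Vehicle tumours. Il6, Osmr, Il6st and Stat3 were also higher in both TAK-931 tumours, by more in TAK-931 tumour 1 than in TAK-931 tumour 2. Il11ra1 was higher only in TAK-931 tumour 1, Osm was lower only in TAK-931 tumour 1, and Il6ra lay on either side of the Vehicle tumours. In edgeR's quasi-likelihood test, none of the 9 genes that passed the filter on low counts reached an adjusted p of 0.05, and 0% of all genes tested did. At an unadjusted p under 0.05 there were 3 of the 9 (Socs3, Lif and Il6st), all higher with TAK-931, against a background of 11.6% of genes higher and 6.55% lower. With library totals alone as the scaling, that background was 1734 genes higher and 614 lower, against 1579 and 896. The 2 groups did not overlap, with TAK-931 higher, in 6 of the 9 (background 30%) and, with TAK-931 lower, in 0 of the 9 (background 32.7%). Il6 had fewer than 10 counts in both Vehicle tumours and passed the filter through the TAK-931 ones, so that it had to be higher there, and Lif had fewer than 10 counts in Vehicle tumour 2. Without them, 2 of 7 genes were higher at an unadjusted p under 0.05, against 1299 of the 12242 genes with at least 10 counts in every library, and 4 of 7 did not overlap and were higher, against 28.2% of those genes. The count of 3 was 0 without Vehicle tumour 1, when 6.50% of all genes tested were called higher, and 0 without Vehicle tumour 2 (6.52%). It stayed at 3 without TAK-931 tumour 1 (18.2%) and was 6 without TAK-931 tumour 2 (31.1%). With 2 tumours against 2, an exact permutation test of a single gene cannot go below a two-sided p of 0.33.

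**Figure D1:**
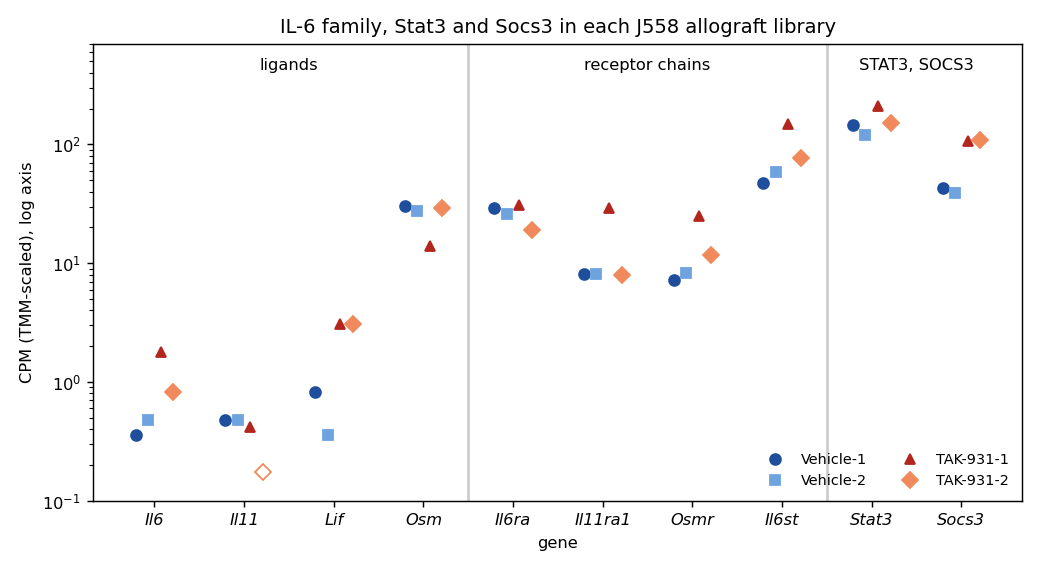
CPM (log axis) of each of the 10 genes in the 4 libraries, 1 point per library, with the Vehicle tumours in blue and the TAK-931 libraries in red and orange. The open symbol is the upper limit of 0.175 CPM that a count of 0 allows for Il11 in TAK-931 tumour 2. The 2 TAK-931 points lie together for Lif and Socs3 and apart for Il11ra1, Osm and Il6st.

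Of the ligands Il6, Lif and Osm, Lif, which signals through gp130 and the LIF receptor, had the largest fitted change. Lif (chromosome 11, 4257568 to 4272514, mm10) had 0.830 CPM in Vehicle tumour 1, 0.360 in Vehicle tumour 2, 3.06 in TAK-931 tumour 1 and 3.09 in TAK-931 tumour 2. The lowest TAK-931 value was above the highest vehicle value, and the TAK-931 pair lay closer together than the vehicle pair. The mean was 0.595 ± 0.3327 CPM in Vehicle and 3.07 ± 0.0261 CPM in TAK-931 tumours (SD, n = 2), for which edgeR gave a log2 fold change of 2.35 (SE 0.74) and an adjusted p of 0.275. These levels rest on few reads, with counts of 14 and 6 against 58 and 53, and the log2 fold change was 3.07 without Vehicle tumour 1 and 1.86 without Vehicle tumour 2.

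Il6 (chromosome 5, 30013161 to 30019968), the founding ligand, was measured at 0.356 and 0.480 CPM in the Vehicle tumours, 1.79 in TAK-931 tumour 1 and 0.817 in TAK-931 tumour 2. The groups did not overlap, and TAK-931 tumour 1 was 2.19-fold TAK-931 tumour 2. edgeR gave a log2 fold change of 1.63 (SE 0.81) and an adjusted p of 0.322. The counts behind it were 6, 8, 34 and 14, and a count of 0 allows between 0.158 and 0.180 CPM, so that the Vehicle values lay within a few counts of that limit. The log2 fold change was 0.95 without TAK-931 tumour 1.

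Il11 (chromosome 7, 4772378 to 4782857), which acts on stromal and bone marrow cells, had 8 counts in each of Vehicle tumour 1, Vehicle tumour 2 and TAK-931 tumour 1 and 0 in TAK-931 tumour 2. It did not pass the filter and was not tested. A difference between the groups was not detectable at this depth.

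Osm (chromosome 11, 4236785 to 4241026), a product of activated leukocytes, showed another order. It had 30.4 CPM in Vehicle tumour 1, 27.8 in Vehicle tumour 2, 13.96 in TAK-931 tumour 1 and 28.9 in TAK-931 tumour 2. TAK-931 tumour 2 lay between the Vehicle tumours, so the groups overlapped, and TAK-931 tumour 1 alone was low at 0.480-fold the Vehicle average. edgeR gave a log2 fold change of −0.44 (SE 0.43) and an adjusted p of 0.555. The change was −0.0088 without TAK-931 tumour 1 and −1.08 without TAK-931 tumour 2. The 8 plasma cell markers were between 0.320-fold (Trap1a) and 0.584-fold (Jchain) the Vehicle average in TAK-931 tumour 1. They were between 0.847-fold (Sdc1) and 2.23-fold (Irf4) in TAK-931 tumour 2. Their part in the Osm value was not tested. Osm and Lif are neighbours in the genome, with 16541 bases between the end of Osm and the start of Lif, and the pattern over the 4 libraries differed between them.

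The receptor chains include the shared chain and those that give each cytokine its specificity. Il6st (chromosome 13, 112464070 to 112506860), the gene of gp130, was measured at 47.3 and 58.8 CPM in the Vehicle tumours, 148 in TAK-931 tumour 1 and 76.3 in TAK-931 tumour 2. Both TAK-931 tumours were above both Vehicle ones, at 2.79-fold and 1.44-fold the Vehicle average. edgeR gave a log2 fold change of 1.08 (SE 0.40) and an adjusted p of 0.275, and it was 0.52 without TAK-931 tumour 1.

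Osmr, the oncostatin M receptor chain that pairs with gp130 (chromosome 15, 6813577 to 6874313), followed the same order. It had 7.23, 8.21, 25.1 and 11.7 CPM in Vehicle tumour 1, Vehicle tumour 2, TAK-931 tumour 1 and TAK-931 tumour 2. The groups did not overlap, with TAK-931 tumour 1 at 3.25-fold and TAK-931 tumour 2 at 1.52-fold the Vehicle average. edgeR gave a log2 fold change of 1.25 (SE 0.51) and an adjusted p of 0.281, and it was 0.60 without TAK-931 tumour 1. Per length, the ratio of Osmr to Il6st stayed between 0.157 and 0.191 in the 4 libraries.

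Il11ra1, the IL-11 receptor chain (chromosome 4, 41760443 to 41769473), had the widest gap between the TAK-931 tumours among Il6ra, Il11ra1, Osmr and Il6st. It had 8.18 and 8.03 CPM in the Vehicle tumours, 29.1 in TAK-931 tumour 1 and 7.99 in TAK-931 tumour 2. TAK-931 tumour 2 was level with the Vehicle tumours, and its log2 fold change of 1.19 (SE 0.71; adjusted p by edgeR 0.368) was −0.023 without TAK-931 tumour 1. Its near copy Il11ra2 was listed with 0 counts in all 4 libraries. Reads that fit both copies would not be placed uniquely, so the Il11ra1 level is uncertain.

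Il6ra, the chain that binds IL-6 itself (chromosome 3, 89869324 to 89913162), was measured at 29.0 and 25.9 CPM in the Vehicle tumours, 30.9 in TAK-931 tumour 1 and 19.2 in TAK-931 tumour 2. The TAK-931 tumours lay on opposite sides of the Vehicle ones. By edgeR its log2 fold change was −0.13 (SE 0.34; adjusted p 0.828), and it turned to 0.15 without TAK-931 tumour 2. Per length, Il6ra was 1.00-fold and 0.718-fold Il6st in the Vehicle tumours, and 0.341-fold and 0.410-fold in TAK-931 tumour 1 and TAK-931 tumour 2. The balance of the IL-6 binding chain to gp130 was thus lower in both TAK-931 tumours, a difference given as a description with no test.

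Stat3 (chromosome 11, 100886810 to 100939511), the transcription factor that gp130 activates, was the most abundant of the 10 by mean level per length in both groups. It had 145 and 120.2 CPM in the Vehicle tumours, 209.6 in TAK-931 tumour 1 and 150.5 in TAK-931 tumour 2. The groups did not overlap, but TAK-931 tumour 2 was only 1.13-fold the Vehicle average, less than the 1.21-fold between Vehicle tumour 1 and Vehicle tumour 2. edgeR gave a log2 fold change of 0.44 (SE 0.28) and an adjusted p of 0.389. The change was 0.18 without TAK-931 tumour 1, 0.64 without TAK-931 tumour 2 and 0.29 without Vehicle tumour 2. RNA levels say nothing of STAT3 phosphorylation, by which the protein is switched on.

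Socs3, at 117966087 to 117969366 of chromosome 11, had 42.7 CPM in Vehicle tumour 1, 38.7 in Vehicle tumour 2, 106 in TAK-931 tumour 1 and 108 in TAK-931 tumour 2. The TAK-931 tumours were together, at 2.603-fold and 2.66-fold the Vehicle average, and far from the Vehicle ones. The mean was 40.7 ± 2.85 CPM in Vehicle and 107 ± 1.62 CPM in TAK-931 tumours (SD, n = 2). The log2 fold change of 1.40 (SE 0.20) had the lowest p of the 9 genes, and after adjustment across the whole table edgeR put it at 0.275. Leaving out each library in turn gave log2 fold changes between 1.30 and 1.47. Among the alternatives with all 4 libraries, DESeq2 gave Socs3 an adjusted p of 0.000574, and it called no other of the 10 genes (it gave Il6 no adjusted p), against 10.3% of all genes tested that it called. The other alternatives with all 4 libraries gave Socs3 an adjusted p between 0.127 (edgeR with the replicate block) and 0.342 (limma-voom).

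Because Socs3 is a known STAT3 target, its promoter was searched for the STAT binding motif TTCNNNGAA, which reads the same on both strands. The 250 bases upstream of the RefSeq start of Socs3 (GRCm38.p6, chr11:117969367-117969616, minus strand) are shown with the match in capitals, beside those of Lif (chr11:4257318-4257567, plus strand), the other gene that was level in both TAK-931 tumours.
Socs3: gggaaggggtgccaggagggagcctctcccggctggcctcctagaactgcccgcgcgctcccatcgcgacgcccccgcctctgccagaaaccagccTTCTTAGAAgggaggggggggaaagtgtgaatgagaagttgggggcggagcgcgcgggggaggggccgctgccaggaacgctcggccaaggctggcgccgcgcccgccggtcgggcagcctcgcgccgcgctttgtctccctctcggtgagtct
Lif: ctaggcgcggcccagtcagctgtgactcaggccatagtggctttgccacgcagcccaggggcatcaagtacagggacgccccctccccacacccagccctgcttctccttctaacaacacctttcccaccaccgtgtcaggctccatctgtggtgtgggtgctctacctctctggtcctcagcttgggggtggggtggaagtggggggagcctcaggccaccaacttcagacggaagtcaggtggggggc

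The match in Socs3 lies from −154 to −146, counted back from the start with −1 as the last base before it. It was the only match among the 11 windows of the 9 genes that had one, and the Lif window held none. Over all genes, 7.02% of 32851 windows of this length held the motif. A match in a window of this kind is a description of its letters.

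**Figure D2:**
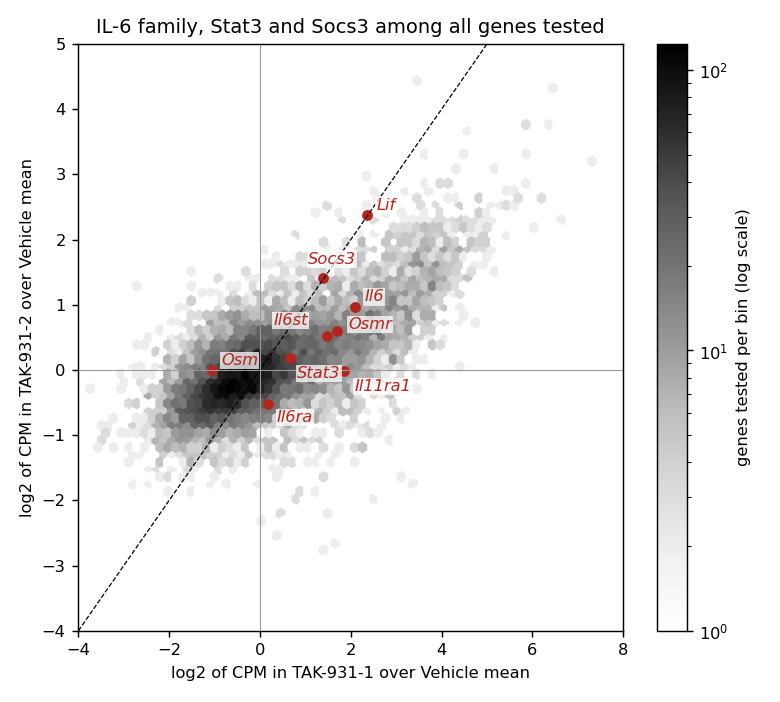
Log2 of the CPM in TAK-931 tumour 1 (x axis) and in TAK-931 tumour 2 (y axis) over the mean of the Vehicle tumours, for the genes tested that had counts in both TAK-931 libraries and a Vehicle average above 0 (grey bins) and for the 9 genes tested here (red). Socs3 and Lif lie on the dashed line of equal values, and Il6, Osmr, Il6st and Il11ra1 lie to its right.

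The place of each gene among all genes tested differed between the TAK-931 tumours. The median ratio to the Vehicle average over all genes tested was 0.978-fold in TAK-931 tumour 1 and 0.983-fold in TAK-931 tumour 2. Socs3 was above 76.7% of genes in TAK-931 tumour 1 and above 92.5% in TAK-931 tumour 2, although its ratio was nearly the same in both. Lif was above 86.3% and 97.8%. In contrast, Il11ra1 was above 81.6% in TAK-931 tumour 1 and 50.1% in TAK-931 tumour 2. Of the 9 genes, 6 had their highest CPM in TAK-931 tumour 1, against 41.2% of all genes tested. The 3 exceptions were Lif, Socs3 and Osm.

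Levels were compared between genes per exon length, as TPM, in which counts are divided by exon length and each library is scaled to the same sum. In Vehicle tumours the order of mean TPM was Stat3 (52.4), Osm (27.0), Socs3 (26.5), Il6st (17.2), Il6ra (14.5), Il11ra1 (7.32), Osmr (2.83), Il6 (0.680), Il11 (0.421) and Lif (0.243). The ranges of Osm and Socs3 overlapped, as did those of Il6st and Il6ra. In TAK-931 tumours the order was Stat3 (74.4), Socs3 (73.4), Il6st (37.9), Osm (21.3), Il11ra1 (17.2), Il6ra (13.9), Osmr (6.99), Il6 (2.20), Lif (1.32) and Il11 (0.188). Stat3 and Socs3 then overlapped, and so did Il6st and Osm, Osm and Il11ra1, and Il11ra1 and Il6ra. Further apart in the order, Osm overlapped with Il6ra and Il11ra1 with Osmr. Socs3 was 0.484-fold and 0.530-fold Stat3 per length in the Vehicle tumours, 0.832-fold in TAK-931 tumour 1 and 1.18-fold in TAK-931 tumour 2. Osm was the only ligand at the level of the receptor chains, at 10.6-fold and 8.57-fold Osmr in the Vehicle tumours, 1.41-fold in TAK-931 tumour 1 and 6.26-fold in TAK-931 tumour 2.

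The other genes of the pathway were compared in 4 lists, to ask whether they moved with the family. Of 58 genes, 51 were tested. None passed an adjusted p of 0.05 by edgeR's quasi-likelihood test, whereas DESeq2 called 24 of them at that threshold, against 10.3% of all genes, Il27ra (2.13e-05), Stat2 (0.000556) and Bcl3 (0.00085) among them by adjusted p. In edgeR, 24 were higher and 2 lower at an unadjusted p under 0.05 (background 11.6% and 6.55%), and the groups did not overlap in 32 that were higher and 5 that were lower (background 30% and 32.7%). The same background applies to each of the 4 lists. The median log2 fold change was 0.92 over the 51, against 0.02 over all genes tested. Without Il27, which had fewer than 10 counts in both Vehicle tumours, 50 had at least 10 counts in every library. Of the 50, 23 were higher at an unadjusted p under 0.05 by edgeR, against 1299 of all 12242 such genes. In 31 the groups did not overlap and TAK-931 was higher, against 28.2% of such genes. Without TAK-931 tumour 1 the number at an unadjusted p under 0.05 was 27 higher and 4 lower, when 18.2% of all genes were called higher and 22.6% lower. It was 12 and 0 without Vehicle tumour 1 (6.50% and 0.356%), 11 and 1 without Vehicle tumour 2 (6.52% and 0.459%), and 37 and 7 without TAK-931 tumour 2 (31.1% and 32.1%).

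Of the other IL-6 family ligands and receptors, 8 of 14 were tested, and 6 were higher without overlap (background 30%). Among the 6, Il27 had fewer than 10 counts in both Vehicle tumours. It passed the filter through the TAK-931 tumours, so that it had to be higher there. Il27ra, a receptor chain for IL-27 that pairs with gp130, had 0.712 and 1.20 CPM in the Vehicle tumours, 42.4 in TAK-931 tumour 1 and 7.82 in TAK-931 tumour 2 (log2 fold change 4.71, SE 1.05). The ligand subunit Il27 was 18.4-fold and 7.28-fold the Vehicle average in TAK-931 tumour 1 and TAK-931 tumour 2, on counts of 4, 3, 73 and 26, and its partner subunit gene Ebi3 was 5.71-fold and 2.70-fold. Lifr, the chain that Lif binds, had 3.02, 1.80, 24.2 and 6.42 CPM in Vehicle tumour 1, Vehicle tumour 2, TAK-931 tumour 1 and TAK-931 tumour 2. The ligand gene Clcf1 was 15.8-fold and 2.33-fold the Vehicle average. Adam17, the sheddase that releases the IL-6 receptor from cells, had the highest mean CPM of the list and was 1.31-fold and 1.11-fold the Vehicle average.

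Of the kinases, adaptors and other STATs, all 13 were tested, 7 were higher at an unadjusted p under 0.05 (background 11.6%), 10 were higher without overlap (background 30%), and 1, the phosphatase gene Ptpn11, was lower without overlap at 0.875-fold and 0.902-fold the Vehicle average (background 32.7%). Stat2, a factor of the type I interferon response, had 29.2, 29.6, 182 and 82.6 CPM in the 4 libraries, in the same order (log2 fold change 2.17, SE 0.45). Tyk2, a JAK family kinase, was higher in TAK-931 tumour 2 than in TAK-931 tumour 1, with 52.7, 54.7, 92.1 and 111 CPM in the 4 libraries (log2 fold change 0.92, SE 0.22). The adaptor gene Gab2 was 12.2-fold and 2.77-fold, and Jak1 was 9.27-fold and 1.84-fold the Vehicle average.

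Of the 9 pathway inhibitors, 3 were higher and 1 lower at an unadjusted p under 0.05, and the median log2 fold change was 0.17. Socs1, which like Socs3 blocks JAK kinases, had 10.6 and 7.67 CPM in the Vehicle tumours, 31.9 in TAK-931 tumour 1 and 24.9 in TAK-931 tumour 2 (log2 fold change 1.64, SE 0.35). Ptpn6, the gene of the phosphatase SHP-1, was nearly level in the TAK-931 tumours, at 1.58-fold and 1.57-fold the Vehicle average, and had the highest mean CPM of this list. The phosphatase gene Ptpn1 was 2.85-fold and 1.95-fold. Ptpn2, which encodes a phosphatase of JAK kinases and STATs, had 131 and 132 CPM in the Vehicle tumours, 46.3 in TAK-931 tumour 1 and 68.4 in TAK-931 tumour 2. It was lower in both, and its log2 fold change was −1.20 (SE 0.28). The adjusted p by edgeR was 0.275 for Socs1, Ptpn1, Ptpn2 and Ptpn6.

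Of 22 genes known as STAT3 targets, 21 were tested, with a median log2 fold change of 1.08. At an unadjusted p under 0.05 by edgeR, 10 were higher and 1 lower (background 11.6% and 6.55%). The groups did not overlap in 12 that were higher and 2 that were lower (background 30% and 32.7%), and 7 overlapped. Bcl2l1, which encodes the survival protein BCL-XL, had 47.3 and 44.0 CPM in the Vehicle tumours, 96.6 in TAK-931 tumour 1 and 97.0 in TAK-931 tumour 2. Like Socs3 it was level in both TAK-931 tumours, at 2.12-fold and 2.13-fold the Vehicle average (log2 fold change 1.08, SE 0.20). Bcl3, a nuclear regulator of NF-κB, was 6.87-fold and 3.51-fold, and Il4ra, the IL-4 receptor chain, was 4.50-fold and 2.44-fold. Vegfa, the angiogenic growth factor, was lower in both, with 150.1, 111, 40.7 and 55.9 CPM in the 4 libraries (log2 fold change −1.43, SE 0.29). Mcl1, a survival gene of plasma cells, was 0.577-fold the Vehicle average in TAK-931 tumour 1 and 1.29-fold in TAK-931 tumour 2. Its log2 fold change of −0.10 turned to 0.36 without TAK-931 tumour 1. Myc, the oncogene of mouse plasmacytomas, was 0.295-fold and 0.899-fold. The part of STAT3 and of other signals in the values of this list was not tested.

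**Figure D3:**
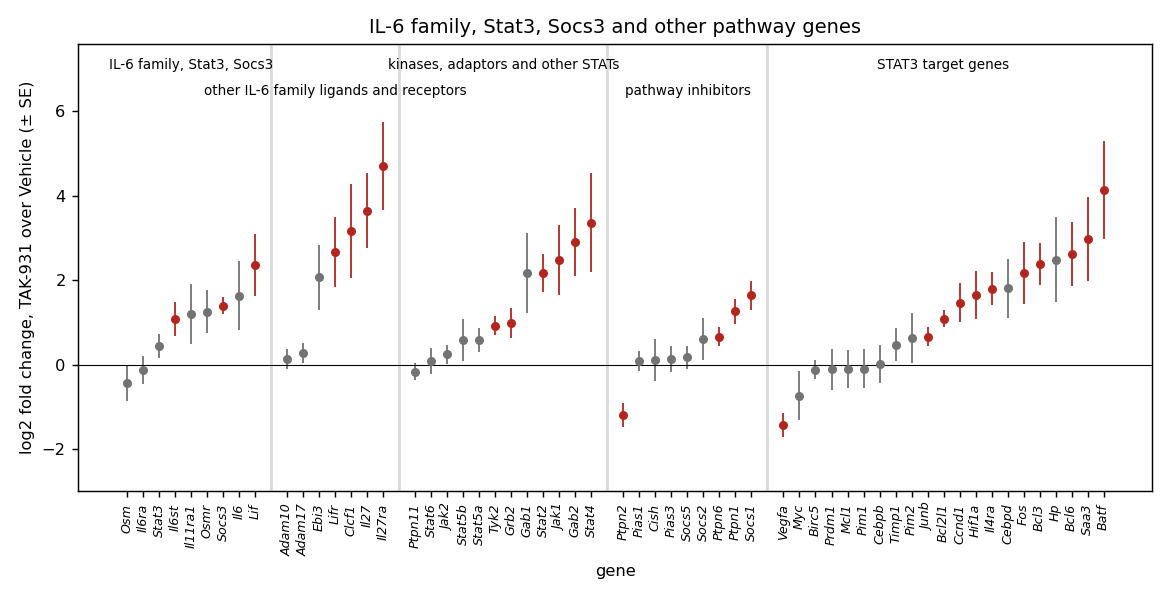
Log2 fold change of TAK-931 over Vehicle tumours with its standard error, from edgeR, for the 9 genes tested of the IL-6 family, Stat3 and Socs3 and for tested genes of the 4 pathway lists. Red points have an unadjusted p under 0.05 and grey points do not. No point passes an adjusted p of 0.05, and Socs3 and Bcl2l1 both have a standard error of 0.20.

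Markers of most host cell types were highest in TAK-931 tumour 1. Over all genes tested, the background for these lists, 30% were higher in both TAK-931 tumours. The T cell list (8 genes) summed to 31.2 and 21.5 CPM in the Vehicle tumours, 1258 in TAK-931 tumour 1 and 90.1 in TAK-931 tumour 2, and 8 of its 8 genes were higher in both TAK-931 tumours. The monocyte and macrophage list (8 genes) summed to 459 and 392 CPM, then 6471 and 1165 CPM, with 7 of 8 genes higher in both. The dendritic cell list (6 genes) summed to 25.9 and 21.2, then 296 and 62.1 CPM, with 5 of 6 genes higher in both. The fibroblast list (8 genes) summed to 1921 and 2193 CPM, then 15306 and 5179 CPM, with 7 of 8 higher in both.

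The endothelial list summed to 248 and 273 CPM in the Vehicle tumours, 873 in TAK-931 tumour 1 and 250.2 in TAK-931 tumour 2. Of its genes, 2 of 6 (Cdh5 and Kdr) were higher in both TAK-931 tumours (background 30%). The skeletal muscle list (6 genes) was high in TAK-931 tumour 1 alone, with 0 of 6 genes higher in both, at 82.3 and 86.4, then 591 and 11.4 CPM, as was the adipocyte list (6 genes, 0 higher in both), at 45.9 and 69.0, then 289 and 28.9 CPM. Of the neutrophil list, 5 of 6 genes were in the tables, and they summed to 6.29 and 6.83, then 129 and 15.2 CPM. Of the 5, 1 (Csf3r) was higher in both TAK-931 tumours (background 30%). Csf3r alone gave 115 CPM in TAK-931 tumour 1 and 15.1 in TAK-931 tumour 2, where S100a9 was at 0.117 CPM and S100a8, Cxcr2 and Retnlg were at 0, as Retnlg also was in both Vehicle tumours. The keratinocyte list (6 genes) summed to between 34.8 and 84.9 CPM. The part of these cells in the values of the 10 genes, Socs3 and Lif included, was not tested.

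**Figure D4:**
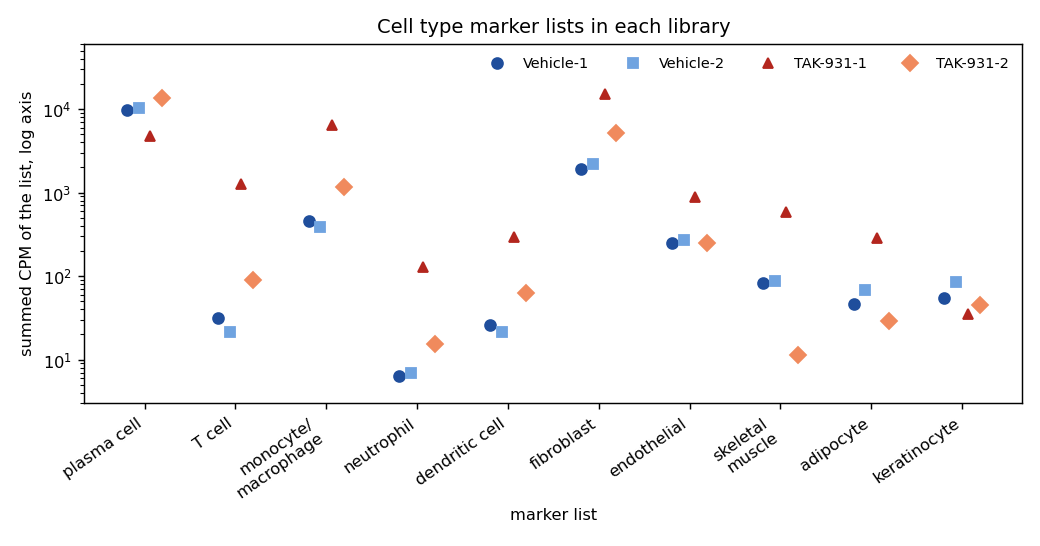
Summed CPM (log axis) of each cell type marker list in the 4 libraries, 1 point per library. The T cell, macrophage, dendritic cell and fibroblast lists are highest in TAK-931 tumour 1 and next in TAK-931 tumour 2, and the plasma cell list is lowest in TAK-931 tumour 1.

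The genes whose pattern over the 4 libraries was most like that of each family gene were found by the Euclidean distance between log2 CPM values centred on each gene's mean, among 9991 genes. For Socs3 these were Itpkb (distance 0.0791), Iffo1 (0.151) and Zfp651 (0.214), and 6 genes lay within 0.3. Itpkb had 24.9, 23.4, 61.9 and 61.0 CPM in the 4 libraries. The Osm pattern was far more common, with 599 genes within 0.3, nearest of them Phtf2 (0.0134), Bcl2l2 (0.0415) and the mitotic checkpoint gene Bub1b (0.0439). Those nearest to Il6st were Tnfrsf18, Fmod and Fbrsl1, and Fbrsl1 was also among the 3 nearest to Osmr, with Slc16a3 and Itsn1. Il11ra1 was nearest to Gcnt2, Ftl1 and Wwp1, Il6ra to Ap3s1, Dpy19l1 and Casp9, and Stat3 to Atrn, Ssfa2 and Cox6c. With 4 libraries, such likeness is a description.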

How the data were processed

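Bulk RNA-seq of 4 J558 allografts was analysed, 2 per group, with groups taken from the sample titles. The deposited counts per gene symbol were made by the authors with STAR 2.6.1c and featureCounts on mm10, per the labels, from uniquely placed reads, per the file headers. The strand setting and annotation are not given in the sources used here. A deposited length column of another kind holds summed exon bases per gene. Of the gene counts that lay from 1 to 20, only 17.9% to 23.9% per library were odd numbers, so both mates of a pair appear to be counted, and intervals and floors, which cover counting error only, are too narrow.

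Genes were kept by filterByExpr (minimum count 10), which left 13669 of 24421. edgeR 4.0.16 (R 4.3.3) was run with TMM scaling, a robust quasi-likelihood fit, treatment as the only term, two-sided tests and Benjamini-Hochberg adjustment at 0.05. TPM used the deposited counts and lengths. The floor is 3 counts. Alternatives were other scalings, filters, DESeq2 1.42.0, limma-voom 3.58.1, no robust estimation, halved counts, a replicate block and each library left out. The tests were checked on counts drawn at known folds. The 10 genes, the lists and the tests were chosen with earlier results of these data known. All 10 genes were named, with the 4 lowest p and the highest mean CPM of each pathway list, Ebi3, Jak1, Ptpn11 and Myc being added after their values were seen and some genes of the lists not being reported here, and the 3 genes most alike in pattern (offset of 0.5 CPM, mean log2 CPM over 3) for each gene over 2 CPM. Promoter sequences are from RefSeq (GRCm38.p6); 9 of the 10 genes had one. The labels do not say that tumours of a group are from separate experiments. The p-values set the group difference against the spread between these tumours only, estimated with information from all genes tested.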

Additional observations from a re-analysis of the deposited data

How the results depend on the processing

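The number of genes at an adjusted p under 0.05 was 0 in edgeR with TMM, DESeq2 size factors, library totals alone, no filter, at least 10 counts in every library, no robust estimation and halved counts, and in limma-voom. It was 1411 with DESeq2, 144 with the replicate block, and between 0 and 8424 when 1 library was left out (3996 without TAK-931 tumour 1, 8424 without TAK-931 tumour 2). The lone library of a group is then assumed to vary like the other pair, so the call rests on the spread of that pair. Of the 10 genes, 0 passed an adjusted p of 0.05 in edgeR (0% of all genes tested) and 1 did with DESeq2 (10.3%). At an unadjusted p under 0.05 the number higher was between 0 and 6 on leaving out 1 library. Over the whole table, limma-voom gave 826 genes higher and 1130 lower at an unadjusted p under 0.05, against 1579 and 896 in edgeR, and leaving out 1 library gave between 951 and 4505 higher and between 52 and 4651 lower. Of the other pathway genes, 24 passed an adjusted p of 0.05 with DESeq2 and between 0 and 43 when 1 library was left out (26 without TAK-931 tumour 1, 43 without TAK-931 tumour 2). At an unadjusted p under 0.05, limma-voom gave 12 of them higher, and leaving out 1 library gave between 11 and 37 higher and between 0 and 7 lower. The cause of these differences was not tested. On leaving out 1 library the log2 fold change of Il6ra lay between −0.52 and 0.15 (positive without TAK-931 tumour 2), that of Il11ra1 between −0.023 and 1.82 (negative without TAK-931 tumour 1) and that of Mcl1 between −0.82 and 0.36 (positive without TAK-931 tumour 1). Under the replicate block, Lif no longer had an unadjusted p under 0.05 by edgeR (its log2 fold change was 2.45), and Socs3 had an adjusted p of 0.127. Under limma-voom, Il6st no longer had an unadjusted p under 0.05 (its log2 fold change was 1.01, against 1.08 in edgeR). Deviations of same-numbered libraries correlated at 0.0198 across genes, and nothing in the labels pairs them.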

Other observations

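Of the pathway genes that did not pass the filter, Il31 and Il11ra2 had 0 counts in all 4 libraries. Il31ra had 0 counts in both Vehicle tumours, 6 in TAK-931 tumour 1 and 3 in TAK-931 tumour 2. Ctf1 had 2 counts in Vehicle tumour 1, 10 in TAK-931 tumour 1 and 0 in the other tumours. Cntf had between 1 and 8 counts and Cntfr between 8 and 14. Lcn2, an acute phase gene, had 4 counts in each Vehicle tumour, 44 in TAK-931 tumour 1 and 0 in TAK-931 tumour 2. These values were not tested.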
